A study of Mus musculus with 21 samples.

Results

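Described here are 33 mouse genes that encode the chaperones, folding enzymes, translocation machinery and stress sensors of the endoplasmic reticulum (ER), the compartment where secreted and membrane proteins are folded. They were chosen by gene symbol. All 33 were found among the 34573 genes of the count table, and all 33 were among the 6812 genes with enough reads to be tested. Messenger RNA was sequenced from bone-marrow-derived macrophages of C57bl/6 mice aged 12 weeks. Marrow cells were grown for 6 days in medium conditioned by L929 cells, a mouse fibroblast line that secretes the macrophage growth factor M-CSF. For 3 h the cells then received dimethyl malonate (DMM), succinate or neither, and afterwards lipopolysaccharide (LPS, which comes from the outer membrane of Gram-negative bacteria and activates macrophages) or none, for 4 or 48 h. Succinate is a mitochondrial dicarboxylate. DMM is a cell-permeable ester of malonate, which competes with succinate for succinate dehydrogenase. No dose is named in the labels, and all groups carry the same genotype and growth medium.

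The 4 h groups were DMM then LPS (2 libraries), succinate then LPS (1 library) and LPS alone (2 libraries). The 48 h groups were DMM then LPS (2 libraries), succinate then LPS (1 library) and LPS alone (2 libraries, of which 1 was kept apart, as described below). The unstimulated groups were DMM alone (4 libraries), succinate alone (4 libraries) and untreated control cells (3 libraries). Their columns in the table carry no hours, so both sets were pooled, and a difference between the sets could not be removed. Whether replicates are separate cultures or animals is not stated, so a p-value here reflects the spread among these libraries alone, and that spread may be technical.

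When unfolded proteins gather in the ER, 3 membrane sensors (IRE1, encoded by Ern1; ATF6; and PERK) start the unfolded protein response. IRE1 splices Xbp1 messenger RNA, cleaved ATF6 moves to the nucleus, and PERK slows translation and raises ATF4 and then CHOP, encoded by Ddit3. In many cell types XBP1 and ATF6 bind short elements in the promoters of chaperone genes and raise their transcription. Activated macrophages also secrete large amounts of protein, which places a load on the same machinery.

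The best known of these promoter motifs is the ER stress element, ERSE. It was searched as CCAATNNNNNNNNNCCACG on both strands of RefSeq promoter windows (GRCm38.p6) that run from 250 bases before to 50 bases after each start site. Windows were found for 27 of the 33 genes; the other 6 are Hyou1, Sec61a1, Sec11c, Manf, Atf6 and Ssr2. ERSE was present in 8 of the 27 (29.6%), against 39 of all 32851 windows (0.119%). The motif is known from the promoters of chaperone genes, so this excess is no independent result. The 8 genes held 9 copies, and these are shown because they are the sequence that 8 of the genes share. Each is printed in the direction of the motif with 6 flanking bases on each side, and capitals mark its 2 fixed parts.
Hspa5: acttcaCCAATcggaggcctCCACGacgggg
Hsp90b1, first copy: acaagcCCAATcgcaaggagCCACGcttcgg
Hsp90b1, copy on the opposite strand: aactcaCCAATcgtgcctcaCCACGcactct
Calr: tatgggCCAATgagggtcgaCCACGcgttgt
Canx: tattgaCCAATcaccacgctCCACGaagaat
Pdia6: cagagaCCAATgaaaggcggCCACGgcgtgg
Dnajc3: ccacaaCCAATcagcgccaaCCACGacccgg
Creld2: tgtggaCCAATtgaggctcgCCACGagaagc
Syvn1: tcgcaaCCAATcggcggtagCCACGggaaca

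On GRCm38.p6 the printed stretches are at chr2:34772019-34772049 for Hspa5, chr10:86705632-86705662 and chr10:86705527-86705557 for Hsp90b1, chr8:84847069-84847099 for Calr and chr11:50325794-50325824 for Canx. Those of the other genes are at chr12:17266485-17266515 for Pdia6, chr14:118937821-118937851 for Dnajc3, chr15:88819514-88819544 for Creld2 and chr19:6046526-6046556 for Syvn1. The first Hsp90b1 copy and those of Canx and Creld2 read on the minus strand of the genome, the others on the plus strand. All 9 copies lay before the start site, with their outermost bases between -212 and -26. The copies of Calr and Creld2 and the second copy of Hsp90b1 ran on the strand opposite the gene. A shorter form, ERSE-II, searched as ATTGGNCCACG on both strands, was present in 2 of the 27 windows (7.41%) and in 12 of all 32851 (0.0365%). In Herpud1 it began 52 bases before the start site, and it is shown because Herpud1 had the largest fall in DMM-treated cells.
Herpud1: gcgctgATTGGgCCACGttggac
The other ERSE-II copy, in Dnajb11, ran from base 8 to base 18 after the start site. The XBP1-binding element UPRE, searched as TGACGTGG on both strands, was present in 0 of the 27 windows, against 222 of all windows (0.676%). These matches are letters in a window and say nothing of binding in these cells. The 250 bases before the start site of Hspa5, which encodes the chief ER chaperone BiP, are given with the fixed parts of its ERSE in capitals (GRCm38.p6 chr2:34771840-34772089, plus strand).
Hspa5 window: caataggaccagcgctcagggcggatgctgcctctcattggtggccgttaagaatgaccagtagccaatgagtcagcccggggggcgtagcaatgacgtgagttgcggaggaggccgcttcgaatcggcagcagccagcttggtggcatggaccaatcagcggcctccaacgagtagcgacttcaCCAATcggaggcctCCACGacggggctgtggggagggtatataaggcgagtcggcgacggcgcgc

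**Figure D1:**
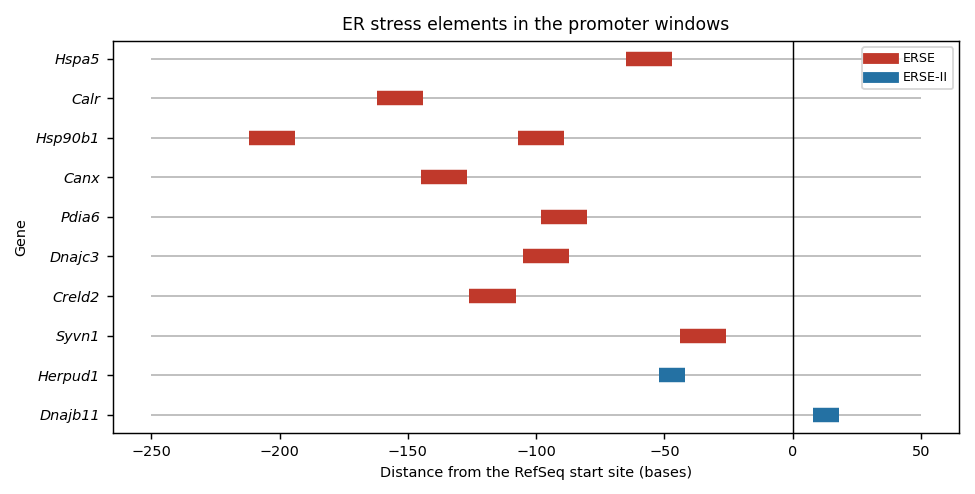
Position of ER stress elements in the promoter windows of the 10 genes that hold one, in bases from the RefSeq start site. Thick red marks are ERSE, thick blue marks are ERSE-II, and grey lines are the windows. All 9 ERSE copies lie before the start site, and Hsp90b1 has 2 of them.

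Library totals were 662186 to 1546867 counts. Macrophage markers were read in every library of the comparisons: the 9 in the table summed to 53900 to 130000 CPM (counts per 1000000). Lyz2 was the highest of them, at 43300 to 135000 CPM after the scaling described below, and Csf1r was at 1350 to 9180. Others were low in some libraries, with Mertk at 3.17 to 38.3 and Mrc1 at 0 to 844. Dendritic cell markers summed to at most 12.1, T and NK cell markers to at most 2.01 and mast cell markers to at most 1.17 CPM, and erythroid markers were at 0. The 8 fibroblast markers summed to 30.3 to 47.2 CPM in DMM then LPS at 4 h, 2.88 in succinate then LPS at 4 h and 4.65 to 14.1 in LPS at 4 h, with Thy1 at 0. The 8 neutrophil markers summed to 229 to 283 in DMM then LPS at 4 h, 421 in succinate then LPS at 4 h and 33.2 to 49.6 in LPS at 4 h, with Ly6g and Ltf at 0. The 9 B and plasma cell markers summed to 24.6 to 127 in the LPS-treated libraries and 1.51 to 15.3 in the unstimulated ones, with Cd79a, Pax5 and Tnfrsf17 at 0; the part of these lists in the results was not tested. The library labelled LPS 48 h number 1 went against its label. It had 38 counts of Saa3 and 1 of Il1b, against 97578 and 5163 in LPS 48 h number 2, and it entered no main comparison. In it, 30 of the 33 ER genes lay within the range of the 11 unstimulated libraries.

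Levels of the ER genes are CPM of the reads in tested genes, scaled by trimmed mean of M values. Per kilobase of exon, control cells held most of P4hb (183 CPM per kb), Pdia3 (163), Canx (113) and Hspa5 (107), followed by Calr (77.2) and Xbp1 (70.6). P4hb and Pdia3 encode protein disulfide isomerases, and Canx encodes the membrane lectin chaperone calnexin. The lowest were Ern1 (1.27) and Syvn1 (0.752), the second of which encodes the ubiquitin ligase HRD1. In control cells the mean levels per library behind these were 523 ± 22.7 CPM for P4hb and 3.65 ± 2.46 CPM for Syvn1 (SD, n = 3).

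**Figure D2:**
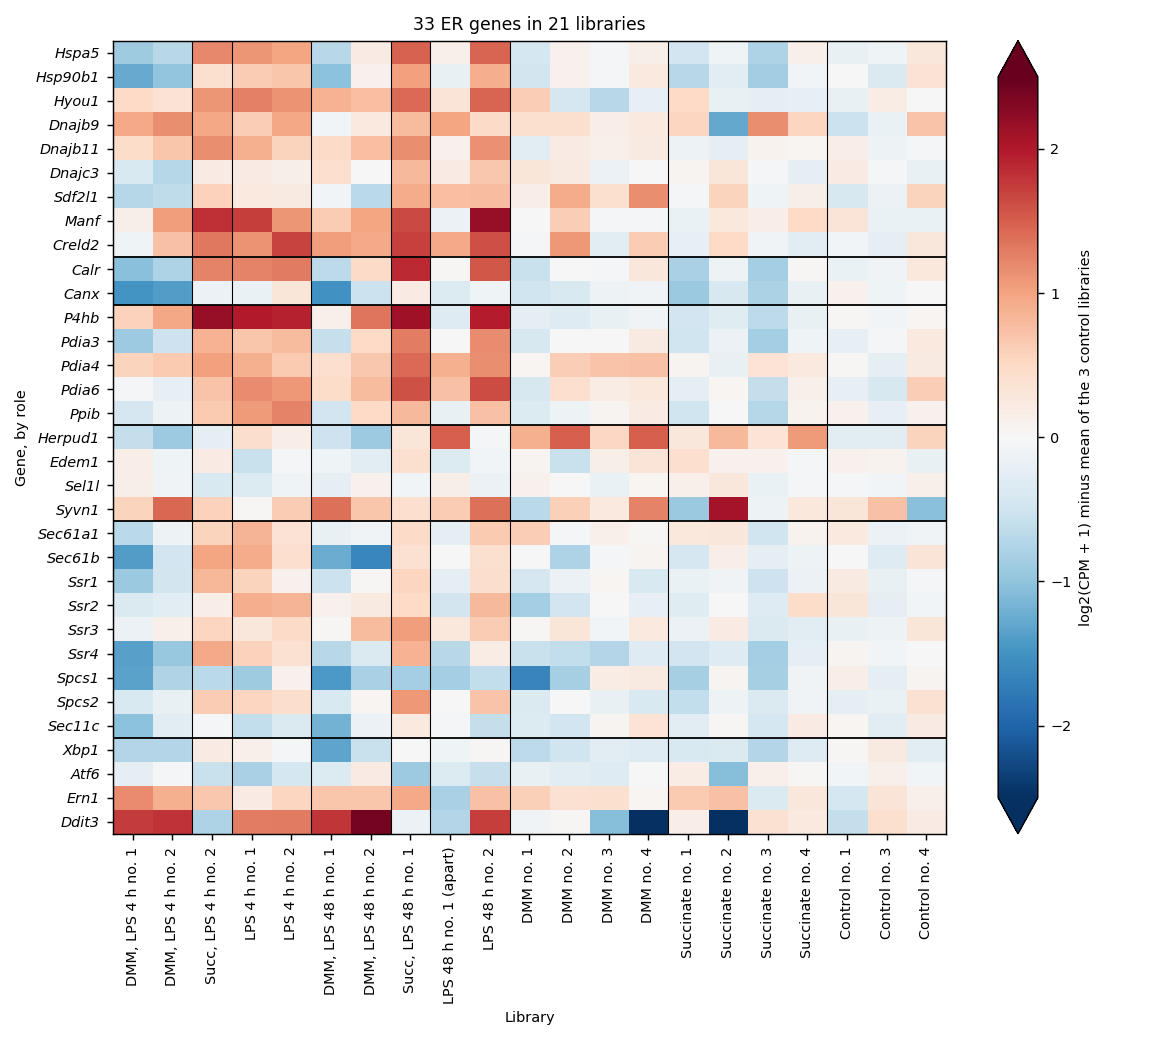
Levels of the 33 ER genes (rows, grouped by role: lumenal chaperones, lectin chaperones, isomerases, ER-associated degradation, translocon and signal peptidase, sensors) in 21 libraries (columns, by group). Colour is log2(CPM + 1) minus the mean of the 3 control libraries, with values beyond 2.5 in either direction drawn at the end colours. P4hb, Manf, Hyou1 and Creld2 are red in the LPS libraries without DMM other than the one kept apart, and Herpud1 is blue in all 4 libraries of DMM then LPS.

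With 4 h of LPS in cells that had no pretreatment, 10 of the 16 chaperones and isomerases rose, and none of the 8 sensor and degradation genes passed the test. Of the 33 genes, 11 rose and 0 fell, at an adjusted p under 0.05 over all 6812 genes. Of all tested genes, 15.4% rose and 12.5% fell. The median log2 fold change was 0.62 over the 33 genes and -0.07 over all genes, and 28 of the 33 were above 0. The share of all genes that rose increased with abundance. Over 128 CPM, 3 of 8 ER genes rose (37.5%, median 0.69), against 34.3% of all 685 genes there (median 0.24). From 32 to 128 CPM, 4 of 14 ER genes rose (28.6%, median 0.41), against 28.2% of 1380 genes (median 0.17), so in both classes the share lay near the background. Under 32 CPM, 4 of 11 ER genes rose (36.4%, median 0.74), against 8.93% of 4747 genes (median -0.15). In bulk RNA a change in the number of cells of a type and a change of RNA per cell cannot be told apart.

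Of the 9 lumenal chaperones and cofactors, 5 rose. Hspa5 was at 959 and 889 CPM in LPS at 4 h, against 394, 418 and 547 CPM in control. Both LPS libraries were above every control, and the log2 fold change was 1.03 ± 0.32 (SE, adjusted p = 0.0151). Hyou1, an Hsp70-like nucleotide exchange factor for BiP, was at 40.5 and 36.6 CPM in LPS at 4 h, against 14.3, 18.8 and 16.1 CPM in control (1.23 ± 0.33, adjusted p = 0.00397). Manf, a secreted BiP cofactor, rose by 1.52 ± 0.40 and Creld2, an ER stress-induced protein with disulfide exchange activity, by 1.48 ± 0.40. Dnajb11, the BiP co-chaperone ERdj3, rose by 0.73 ± 0.25 (adjusted p = 0.0257). The other 4 did not pass the test: Hsp90b1, the ER form of HSP90 known as GRP94, had a log2 fold change of 0.64 ± 0.32, the co-chaperones Dnajb9 and Dnajc3 had 0.74 ± 0.48 and 0.17 ± 0.27, and Sdf2l1, a partner of ERdj3, had 0.17 ± 0.32.

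The largest rise was that of P4hb. It was at 2054 and 1973 CPM in LPS at 4 h, against 531, 497 and 541 CPM in control, a log2 fold change of 1.94 ± 0.32 (adjusted p = 1.78e-05). Of the 5 isomerases, 4 rose. Pdia6 rose by 1.07 ± 0.29, Pdia4 by 0.77 ± 0.27 and Ppib, the ER cyclophilin, by 1.16 ± 0.28, while Pdia3 had a log2 fold change of 0.73 ± 0.33 (adjusted p = 0.098). Ppib shares 825 exon bases with Snx22 on the other strand, and whether strand was used in counting is not stated, so its reads are uncertain to that extent.

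The lectin chaperones parted. Calr, the soluble calreticulin, was at 518 and 541 CPM in LPS at 4 h, against 195, 206 and 265 CPM in control (log2 fold change 1.25 ± 0.33, adjusted p = 0.00406). Canx, which binds the same glycans from the membrane, was at 472 and 657 CPM in LPS at 4 h, against 571, 496 and 529 CPM in control (0.09 ± 0.31), and the groups overlapped.

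None of the 4 degradation genes passed the test. Herpud1, a scaffold of the degradation complex, had a log2 fold change of 0.25 ± 0.37, Edem1, a mannosidase-like protein, -0.29 ± 0.30, Sel1l, the HRD1 adaptor, -0.23 ± 0.25, and Syvn1 0.26 ± 0.93. Of the 9 genes of the translocon and signal peptidase, 1 rose: Ssr2, a subunit of the translocon-associated TRAP complex, by 0.87 ± 0.29 (adjusted p = 0.0217). Ssr2 shares 239 exon bases with a pseudogene. The channel subunits Sec61a1 and Sec61b had 0.62 ± 0.28 and 0.69 ± 0.32, the TRAP subunits Ssr1, Ssr3 and Ssr4 had 0.34 to 0.49, and the signal peptidase subunits Spcs1, Spcs2 and Sec11c had -0.32 ± 0.45, 0.47 ± 0.26 and -0.50 ± 0.32.

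The sensors and factors did not pass the test either. Xbp1 was at 249 and 218 CPM in LPS at 4 h, against 233, 266 and 189 CPM in control (0.03 ± 0.28). These are counts of all its reads, which do not separate its spliced form. Atf6 had a log2 fold change of -0.64 ± 0.34 and Ern1 0.38 ± 0.42. Ddit3 was at 13.9 and 14.0 CPM in LPS at 4 h, against 3.06, 7.04 and 6.05 CPM in control; both LPS libraries were higher, but 1.37 ± 0.61 did not pass the test over all genes (adjusted p = 0.0927). Leaving out LPS 4 h number 1 left 5 of the 11 calls, leaving out LPS 4 h number 2 left 7, and leaving out control number 3 left 7; Calr, Hyou1, P4hb and Ppib passed in each of these. With an abundance-dependent scaling, described below, 10 rose, against 15.6% of all genes.

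At 48 h of LPS the pattern rested on 1 library against 3 controls, with the spread taken from the other groups. Of the 33 genes 10 rose and 0 fell, against 12.5% of all genes that rose and 8.29% that fell. Manf was at 39.6 CPM in LPS at 48 h, against 10.2, 7.04 and 7.06 CPM in control (2.27 ± 0.43, adjusted p = 0.000166). P4hb was at 2048 CPM in LPS at 48 h (1.97 ± 0.38) and Hspa5 at 1231 CPM (1.44 ± 0.38). Creld2, Pdia6, Calr, Hyou1, Pdia3, Pdia4 and Dnajb11 rose by 1.15 to 1.67, and Pdia3 was the one gene of the 10 not called at 4 h. With the library kept apart added to the group, 2 of the ER genes rose, Pdia4 and Pdia6, against 362 of all 6860 genes tested. Set directly against each other over the 3 pretreatments, 48 h and 4 h of LPS gave no call among the 33 genes, against 1.23% of all genes. The differences ran from -0.51 (Dnajb9) to 0.71 (Pdia6, 0.22 SE, adjusted p = 0.134). With edgeR, 5 of the 33 had an unadjusted p under 0.05, against 745 of all 6812 genes. DESeq2 called none at an adjusted p under 0.05. The 4 h and 48 h libraries belong to separate sets, so hours of LPS and set cannot be told apart.

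LPS without DMM here pools LPS alone (2 libraries at 4 h, 1 at 48 h) and succinate then LPS (1 at 4 h, 1 at 48 h). Across both times, 14 of the 33 genes were higher in all 5 of these libraries than in all 11 unstimulated libraries, against 13.6% of all genes. They were Calr, Creld2, Dnajb11, Hsp90b1, Hspa5, Hyou1, Manf, P4hb, Pdia3, Pdia6, Ppib, Sec61b, Spcs2 and Ssr4. No ER gene was lower in all 5 than in all 11, against 8.93% of all genes.

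**Figure D3:**
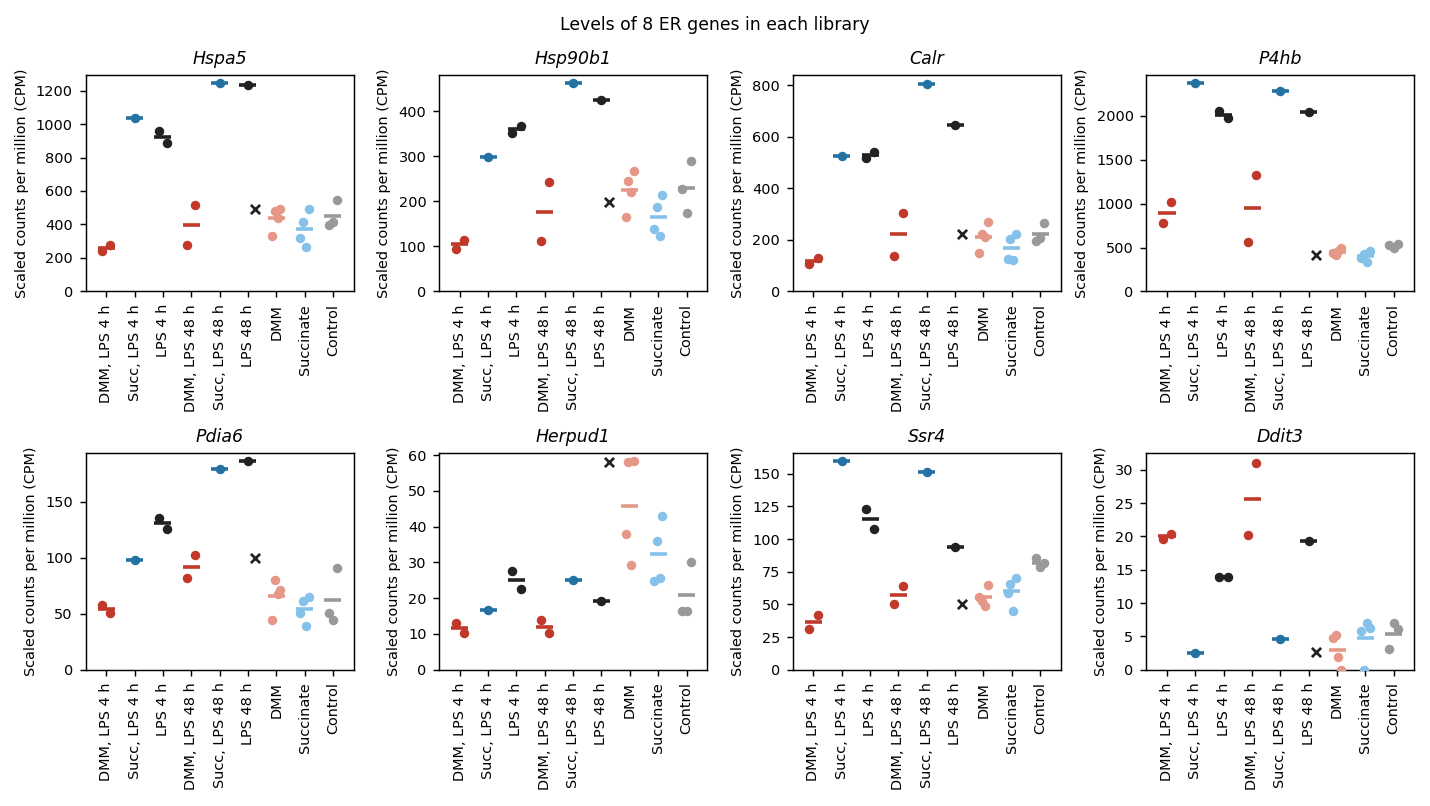
Levels of 8 ER genes in each library, in scaled CPM on linear axes that start at 0. Points are libraries, bars are group means, Succ is succinate, and the cross is the library labelled LPS 48 h number 1, which is left out of the mean. Hspa5, Calr and P4hb stand higher in LPS without DMM than in DMM then LPS, and Ddit3 is highest in DMM then LPS.

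After DMM, 4 h of LPS set against DMM alone gave 2 of the 33 genes that rose and 5 that fell. Of all genes, 15.8% rose and 18.3% fell, so the share of ER genes that fell was near the background. Herpud1 fell most: it was at 12.9 and 10.2 CPM in DMM then LPS at 4 h, against 38.0, 58.2, 29.3 and 58.3 CPM in DMM alone. All 4 of the DMM libraries were higher, and the log2 fold change was -1.98 ± 0.35 (adjusted p = 3.88e-05). Sdf2l1 fell by 1.46 ± 0.31, Canx by 1.18 ± 0.32, Hsp90b1 by 1.11 ± 0.33 and Calr by 0.86 ± 0.33 (adjusted p = 0.0447). Over 128 CPM, 3 of 8 ER genes fell (37.5%, median -0.72), near the 40.9% of all 685 genes there (median -0.64). Hspa5 had a log2 fold change of -0.75 ± 0.32 (adjusted p = 0.0695), with 243 and 277 CPM in DMM then LPS at 4 h, against 331, 480, 440 and 494 CPM in DMM alone, so the groups did not overlap.

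The 2 genes that rose were Ddit3 and P4hb. Ddit3, whose product CHOP is a transcription factor of the PERK arm, was at 19.7 and 20.4 CPM in DMM then LPS at 4 h, against 4.75, 5.22, 1.95 and 0 CPM in DMM alone (2.74 ± 0.55, adjusted p = 0.000173). It shares 68 exon bases with Mars on the other strand. P4hb was at 776 and 1021 CPM in DMM then LPS at 4 h, against 439, 419, 462 and 491 CPM in DMM alone (0.99 ± 0.30, adjusted p = 0.0105). Without DMM then LPS 4 h number 1, 4 of the 7 passed: Ddit3, Herpud1, P4hb and Sdf2l1.

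At 48 h, DMM then LPS against DMM alone gave 3 genes that rose and 3 that fell, against 15.4% of all genes in each direction. Ddit3 was at 20.3 and 31.0 CPM in DMM then LPS at 48 h (3.09 ± 0.54), P4hb at 567 and 1329 CPM (1.07 ± 0.30) and Hyou1 at 30.8 and 28.2 CPM (1.04 ± 0.31). Herpud1 fell by 1.93 ± 0.36, to 13.8 and 10.3 CPM. Sec61b fell by 1.31 ± 0.40 and Sdf2l1 by 1.10 ± 0.31. Over both times Herpud1 was lower in all 4 libraries of DMM then LPS than in all 11 unstimulated ones, against 11% of all genes, and Ddit3, Dnajb11 and P4hb were higher in all 4, against 11.8%. Without DMM then LPS 48 h number 2, 2 genes rose and 5 fell, and 3 of the 6 calls remained: Ddit3, Herpud1 and Hyou1.

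**Figure D4:**
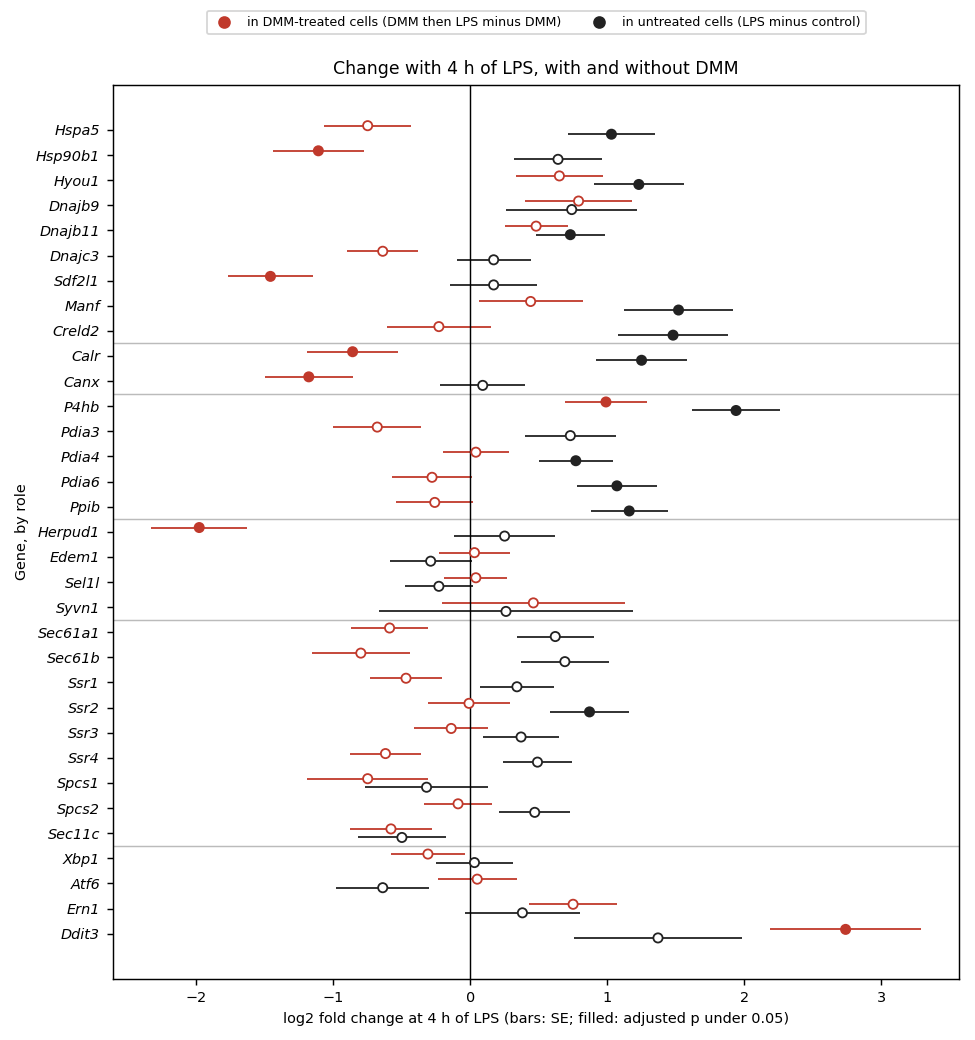
Change with 4 h of LPS for the 33 ER genes, in cells that had DMM (red, DMM then LPS minus DMM) and in untreated cells (black, LPS minus control). The horizontal axis is the log2 fold change, bars are SE, and filled points have an adjusted p under 0.05. Hspa5 and Calr lie below 0 after DMM and above 0 without it, and P4hb lies above 0 in both.

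In the direct comparison of DMM then LPS with LPS at 4 h, 8 of the 16 chaperones and isomerases and 5 of the 9 translocon and signal peptidase genes were lower. Of the 33, 13 were lower and 0 higher, against 10.5% of all genes that were lower and 3.54% that were higher. The median log2 difference was -0.89 over the 33 genes and 0.04 over all genes, and 26 of the 33 were below 0. This comparison shares its LPS libraries with that of LPS against control, so the 2 results are not independent.

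Calr differed most. It was at 106 and 129 CPM in DMM then LPS at 4 h, against 518 and 541 CPM in LPS at 4 h, a log2 difference of -2.17 ± 0.38 (adjusted p = 0.000215). Hspa5 was at 243 and 277 CPM in DMM then LPS, against 959 and 889 CPM in LPS (-1.83 ± 0.37, adjusted p = 0.000899). Hsp90b1 was at 94.4 and 114 CPM in DMM then LPS, against 353 and 368 CPM in LPS (-1.79 ± 0.37). For all 3 the DMM libraries were also below each of the 3 controls. Canx was lower by the same test, with -1.54 ± 0.35.

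Of the isomerases, Pdia3 and Ppib both had -1.45, Pdia6 had -1.26 ± 0.32 and P4hb -1.16 ± 0.36 (adjusted p = 0.027). Pdia4 was at 50.02 and 53.9 CPM in DMM then LPS, against 62.9 and 53.8 CPM in LPS (-0.17 ± 0.28), and the groups overlapped. Of the 9 translocon and signal peptidase genes 5 were lower. Ssr4 had the smallest adjusted p of the 33 genes: it was at 31.5 and 41.8 CPM in DMM then LPS, against 123 and 108 CPM in LPS (-1.66 ± 0.28, adjusted p = 0.000138). Sec61b, the small subunit of the channel, was at 7.87 and 15.8 CPM in DMM then LPS, against 43.7 and 30.1 CPM in LPS (-1.71 ± 0.38). Ssr2, Ssr1 and Sec61a1 were lower by a log2 difference of -1.24, -1.04 and -1.02.

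None of the 4 degradation genes and none of the 4 sensors and factors passed. Herpud1 was at 12.9 and 10.2 CPM in DMM then LPS, against 27.7 and 22.6 CPM in LPS (-1.09 ± 0.42, adjusted p = 0.0787). Edem1, Sel1l and Syvn1 had 0.33, 0.26 and 0.74, and Ddit3, Ern1 and Atf6 had 0.52, 0.72 and 0.49, all above 0. Xbp1 had -0.78 ± 0.30 (adjusted p = 0.0848). Over both times, 18 of the 33 genes were lower in all 4 libraries of DMM then LPS than in all 5 of LPS without DMM, succinate then LPS included, against 10.6% of all genes. Atf6 and Ddit3 were higher in all 4, and 2 of 33 is a share near the 6.27% of all genes. For Ddit3 the lowest of the 4 was 19.7 CPM, in DMM then LPS at 4 h. The highest of the 5 was 19.3 CPM, in LPS at 48 h.

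This difference moved with abundance. Across the 6812 genes, Spearman's rho between abundance and the log2 difference of DMM then LPS against LPS at 4 h was -0.47, given as a description since the genes share their libraries. Over 128 CPM, 46.1% of 685 genes were lower, with a median of -1.0, and 6 of the 8 ER genes there were lower, with a median of -1.49. From 32 to 128 CPM, 18.3% of 1380 genes were lower (median -0.33) and 5 of 14 ER genes were (median -0.77). Under 32 CPM, 3.1% of 4747 genes were lower (median 0.29) and 2 of 11 ER genes were (median -0.77). In each class the median of the ER genes lay below that of all genes. When each library was scaled by a curve over abundance, an alternative chosen after seeing the data, 8 ER genes were lower against 6.28% of all genes: Calr, Hsp90b1, Hspa5, Ppib, Sec61b, Ssr2, Ssr4 and Creld2, of which Creld2 did not pass with the main scaling. The median under this scaling was -0.33 over the 33 genes and 0.05 over all genes. P4hb then had a log2 difference of 0.02.

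Libraries of DMM then LPS at 4 h also stood apart in composition. Ribosomal protein genes took 0.493 to 0.52% of their counts, against 1.51 to 1.61% in LPS at 4 h, and the part of this in the result was not tested. Leaving out DMM then LPS 4 h number 1 gave a median log2 difference of -0.77 over the ER genes, against -0.00 over all genes. Without LPS 4 h number 1 the median was -0.76, against 0.04. Both fits leave 1 library in a group. In both, fewer ER genes and fewer of all genes passed than in the main fit. Fitted on the 4 h stimulated libraries alone, 18 of the 33 were lower, the 13 among them, against 19.1% of the 5227 genes tested in that fit.

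**Figure D5:**
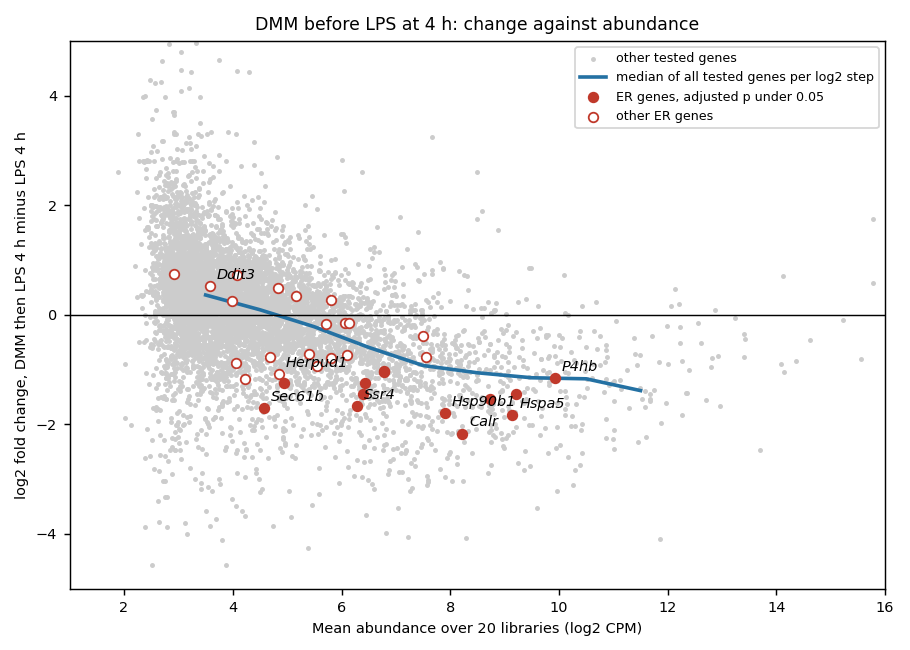
Difference between DMM then LPS and LPS at 4 h against abundance for all 6812 tested genes. The horizontal axis is the mean log2 CPM over 20 libraries and the vertical axis is the log2 fold change, cut at 5 in either direction. Grey points are other genes, the blue line is the median of all tested genes in steps of 1 log2 unit that hold at least 20 genes, and red points are the ER genes, filled where the adjusted p is under 0.05. The line falls with abundance, and Calr, Hspa5, Ssr4 and Sec61b lie below it while P4hb lies on it.

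The test of the difference between the LPS effects, in DMM-treated against untreated cells at 4 h, passed for 7 of the 33 genes. All 7 were lower, against 4.49% of all genes that were lower. This difference moved with abundance as well (Spearman's rho -0.35 across the 6812 genes). Over 128 CPM, 3 of 8 ER genes were lower (median -1.34), against 21.9% of all 685 genes (median -0.99). From 32 to 128 CPM, 3 of 14 were (median -0.77), against 7.61% of 1380 genes (median -0.30). Under 32 CPM, 1 of 11 was (median -0.58), against 1.07% of 4747 genes (median 0.19). Herpud1 had the largest difference between LPS effects, -2.23 ± 0.51 (adjusted p = 0.00762). Calr had -2.12 ± 0.47 (adjusted p = 0.00623), Hspa5 -1.78 ± 0.46 and Hsp90b1 -1.75 ± 0.46. Sdf2l1, Ppib and Pdia6 had -1.64, -1.42 and -1.35. Ddit3 had 1.37 ± 0.86 and did not pass, and P4hb had -0.96 ± 0.45. With the abundance-dependent scaling 2 of the 33 passed, Calr and Herpud1, and the split over all genes was 133 higher and 226 lower, against 64 higher and 306 lower with the main scaling. With the library kept apart added, and again without DMM then LPS 4 h number 1, none passed; Calr passed without each other library of the 4 groups in turn.

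At 48 h, DMM then LPS against LPS rested on 2 libraries against 1. None of the 33 genes passed, against 0.807% of all genes. Below 0 were 29 of the 33, with a median of -0.66, against 0.01 over all genes. This difference too moved with abundance (Spearman's rho -0.35 across the 6812 genes). Over 128 CPM the median was -1.12 over the 8 ER genes and -0.55 over all 685 genes. In each abundance class the median of the ER genes lay below that of all genes. Sec61b was at 8.91 and 6.58 CPM in DMM then LPS at 48 h, against 29.9 CPM in LPS at 48 h (-1.92 ± 0.49, adjusted p = 0.0517). Hspa5 was at 275 and 515 CPM in DMM then LPS, against 1231 CPM in LPS (-1.64 ± 0.42, adjusted p = 0.0534), and Calr had -1.54 ± 0.43. The 2 libraries of DMM then LPS stood apart from each other, with Calr at 139 and 305 CPM and P4hb at 567 and 1329 CPM. The median over the 33 genes was -0.79 without DMM then LPS 48 h number 2, against 0.00 over all genes. Without number 1 it was -0.63, against -0.06. Each of these leaves 1 library against 1.

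Succinate before LPS gave no call. At 4 h, 1 library against 2, none of the 33 genes passed, against 1.03% of all genes. At 48 h, 1 library against 1, none passed, against 0.558%. DESeq2 called none of the 33 at either time. Hspa5 was at 1036 CPM in succinate then LPS at 4 h, against 959 and 889 CPM in LPS at 4 h, and at 1246 CPM in succinate then LPS at 48 h, against 1231 CPM in LPS at 48 h. Calr was at 524 CPM in succinate then LPS at 4 h, against 518 and 541 CPM in LPS. The largest difference was that of Ddit3. It was at 2.57 CPM in succinate then LPS at 4 h, against 13.9 and 14.0 CPM in LPS (-2.38 ± 1.08, adjusted p = 0.546), and at 4.55 CPM in succinate then LPS at 48 h, against 19.3 CPM in LPS (-2.06 ± 0.95, adjusted p = 0.676). Both succinate libraries lay within the range of the unstimulated ones, 0 to 7.04 CPM. At these numbers 9 of the 33 intervals (95%) at 4 h and 8 at 48 h lay within 1 log2 unit of 0, and the others reach beyond a 2-fold change.

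Without LPS, DMM and succinate changed none of the 33 genes by the test. Of all genes, 0.558% differed between DMM and control, 0% between succinate and control, and 0.22% between DMM and succinate. Herpud1 came nearest: it was at 38.0, 58.2, 29.3 and 58.3 CPM in DMM alone and 24.7, 36.0, 25.7 and 43.1 CPM in succinate alone, against 16.3, 16.4 and 30.3 CPM in control. The difference of DMM from control was 1.14 ± 0.29 (adjusted p = 0.0627), that of succinate from control was 0.62 ± 0.30 (adjusted p = 0.929), and the groups overlapped in both. With edgeR, 4 of the 33 genes had an unadjusted p under 0.05 for DMM, a share near that of all genes (803 of 6812). For succinate 3 of the 33 had one, against 363 of all 6812 genes. DESeq2 called none in either at an adjusted p under 0.05. DMM is the ester of a dicarboxylate shorter than succinate by a methylene group. Set against each other without LPS, as the single pair of compounds compared, DMM minus succinate ran from -0.78 (Ddit3) to 0.60 (Sdf2l1, 0.24 SE, adjusted p = 0.468) over the 33 genes. With edgeR 3 had an unadjusted p under 0.05, a share near that of all genes (575 of 6812), and DESeq2 called none at an adjusted p under 0.05. Of the 33, 28 had a 95% interval within 1 log2 unit of 0. Whether the 2 treatments were matched in dose is unknown.

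Further genes of the same pathways were counted from 6 lists. With 4 h of LPS against control, 6 of 14 tested genes of the PERK and ATF4 arm rose and 0 fell, against 15.4% and 12.5% of all genes. Nupr1, a stress-induced chromatin protein, rose by 4.60 ± 0.31, Slc7a11, the cystine transporter, by 3.66 ± 0.37, and Mthfd2, a mitochondrial folate enzyme, by 2.36 ± 0.37. After DMM, the same arm had 7 that rose and 1 that fell against DMM alone at 4 h, where 15.8% of all genes rose and 18.3% fell, with Nupr1 up by 3.86 ± 0.30, Slc7a11 by 3.39 ± 0.32 and Atf3 by 1.79 ± 0.35. Between DMM then LPS and LPS at 4 h, 1 of the 14 was called, Nupr1 (-1.12 ± 0.25), against 10.5% of all genes that were lower and 3.54% that were higher. The median of the 14 genes there was 0.05, near the 0.04 of all genes.

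Among 26 tested genes of redox folding and other ER chaperones, 6 rose (23.1%) and 2 fell (7.69%) with 4 h of LPS, against 15.4% and 12.5% of all genes. Ero1l, the oxidase that recharges disulfide isomerases, rose by 4.83 ± 0.42, and by 4.82 ± 0.37 in DMM-treated cells against DMM alone. Serp1, a translocon-associated stress protein, rose by 2.04 ± 0.39, and it was lower in DMM then LPS than in LPS at 4 h (-1.70 ± 0.44). The isomerase-like Fkbp9 had 0 counts in both LPS libraries at 4 h, against 7 to 12 in each control, which is at least 5.95-fold lower when 3 counts over the group are taken as the floor. Between DMM then LPS and LPS at 4 h, 2 of the 26 were higher (7.69%) and 3 lower (11.5%), against 3.54% and 10.5% of all genes. Prkcsh, a subunit of glucosidase II, was higher (1.29 ± 0.32) and Tapbp, the peptide-loading chaperone tapasin, lower (-1.25 ± 0.33).

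Of 26 tested genes of ER export and retrieval, 7 rose (26.9%) and 0 fell with 4 h of LPS, against 15.4% and 12.5% of all genes. Among the 7 were Surf4, a cargo receptor (1.52 ± 0.30), Lman1, a lectin cargo receptor (1.50 ± 0.36) and Cope, a coat subunit (1.20 ± 0.28). Between DMM then LPS and LPS at 4 h, 0 were higher and 4 lower (15.4%, near the background of 10.5%), with Surf4 at -1.85 ± 0.34 and Cope at -1.12 ± 0.32, while Lman1 rose by 1.61 ± 0.31 in DMM then LPS at 4 h against DMM alone. Of 20 tested degradation genes beyond the 33, 3 rose and 0 fell with 4 h of LPS (Ubxn8, Rnf139 and Derl2), a share near the 15.4% of all genes that rose. Between DMM then LPS and LPS at 4 h Os9 was higher (1.00 ± 0.33) and Vcp lower (-1.29 ± 0.31). Of 24 tested genes of translocation and glycan transfer, 2 rose (Spcs3 and Rpn1) and 0 fell with 4 h of LPS, where 8.33% rose against 15.4% of all genes. Between DMM then LPS and LPS at 4 h, 1 of the 24 was lower (Rpn1, -0.96 ± 0.29), 4.17% against 10.5% of all genes. The last list held ATF6-like factors, their proteases and some other ER stress genes. Of its 6 tested genes, 2 rose (33.3%) and 0 fell with 4 h of LPS, against 15.4% and 12.5% of all genes. Tmbim6, 1 of the other genes, encodes an ER membrane protein that restrains cell death. It rose by 1.31 ± 0.31 and was lower in DMM then LPS than in LPS at 4 h (-1.59 ± 0.36).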

How the data were processed

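The authors deposited raw read counts by gene symbol, in whole numbers. Full-length cDNA libraries came from a modified SmartSeq2 method, per the labels' protocols. TopHat2, Bowtie, HTSeq and edgeR were used, per the submitters' processing notes, with versions, genome build, annotation and strand setting not given in the sources used here. No molecular identifiers are named, so reads are not independent molecules. Columns were assigned to groups by their names, which give no hours for unstimulated cells.

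A gene was tested if 2 or more libraries exceeded the CPM that 10 reads make in the median library and its reads totalled 15 or more. Scaling was by trimmed mean of M values. All comparisons came from 1 model of 9 groups in 20 libraries (11 residual degrees of freedom) with edgeR 4.0.16's robust quasi-likelihood test in R 4.3.3 and Benjamini-Hochberg adjustment over 6812 genes, called at an adjusted p under 0.05. A group with 1 library is assumed to vary like the others. The common biological coefficient of variation was 0.230. At these totals genes of a few CPM rest on few reads, and their intervals are wide. Steps were tested on simulated data. For LPS against control at 4 h, 23 of 100 genes changed 2-fold were called, and 91 of 100 changed 4-fold. For DMM then LPS against LPS at 4 h these were 19 and 91 of 100. In each, 5 unchanged genes were called. A gene that did not pass may thus still have changed 2-fold. DESeq2 1.42.0 and other scalings, filters and library sets were alternatives. Exon lengths and overlaps came from GENCODE M21, promoter windows from RefSeq. Shared exons affect 12 of the 33 genes, and reads there cannot be told apart.

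All 33 members are named. Of each other list, up to 3 called genes per comparison with the smallest p are named. The members and lists were chosen with earlier results of these data known.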

Additional observations from a re-analysis of the deposited data

Results flagged for a closer look

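The difference between the LPS effects at 4 h, in DMM-treated against untreated cells, passed the edgeR test for 7 genes. All 7 were lower, against 4.49% of all genes that were lower. The log2 difference was -1.78 for Hspa5, -1.75 for Hsp90b1, -1.64 for Sdf2l1, -2.12 for Calr, -1.35 for Pdia6, -1.42 for Ppib and -2.23 for Herpud1. The abundance trend and the ribosomal protein shares given in the report move with this difference, and their part in it was not tested.

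In 4 of 66 sets of 4 libraries (33 genes in DMM alone and in succinate alone), 1 library stood far from the other 3 by Dixon's test at the 95% level, which chance flags in about 1 of 20 sets. Hyou1 was at 23.5 CPM in succinate number 1, against 13.9 to 14.2 CPM in the others. Manf was at 12.7 CPM in DMM number 2, against 7.81 to 7.92 CPM. Xbp1 was at 136.1 CPM in succinate number 3, against 174 to 181 CPM. Ddit3 was at 0 CPM in succinate number 2, against 5.88 to 6.95 CPM.

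In the library labelled LPS 48 h number 1, which entered no main comparison, Pdia4 was at 63.6 CPM and Pdia6 at 99.4 CPM. Both were above the highest of the 11 unstimulated libraries, 56.5 CPM for Pdia4 and 90.8 CPM for Pdia6. In LPS 48 h number 2 Pdia4 was at 77.2 CPM and Pdia6 at 186 CPM.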

How the results depend on the processing

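Counts of ER genes called were recomputed under each alternative. With DESeq2, 50 of 54 calls remained, with median-of-ratios size factors 53, with no filter on low counts 51, with all 21 libraries 30, and with abundance-dependent scaling 40; 1 reversed, P4hb in DMM then LPS against LPS at 4 h, with a log2 difference of 0.02. With all 21 libraries the count fell to 2 for LPS at 48 h against control and to 0 for the difference between LPS effects. Abundance-dependent scaling gave 8 for DMM then LPS against LPS at 4 h, 2 at 48 h, and 2 for the difference between LPS effects. For DMM then LPS against LPS at 48 h, DESeq2 gave 2 and no filter 3, against 0. For DMM against control, no filter gave 1, Herpud1. The causes were not tested.

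Leaving out each library in turn gave 5 to 11 genes for LPS against control at 4 h, 4 to 10 for DMM then LPS against DMM at 4 h, 5 to 7 at 48 h, 3 to 12 for DMM then LPS against LPS at 4 h, 0 to 7 at 48 h, 0 to 1 for DMM against control and 0 to 8 for the difference between LPS effects. With the replicate block, on the 4 h stimulated libraries alone, 18 genes were lower in DMM then LPS, the same count as without it. Between these 4 h groups the correlation across genes of number 1 minus number 2 was 0.004, so nothing there shows that the numbers pair the samples; the check was run on no other groups. The counts called over all genes also changed as libraries were left out, so the changes in count are not particular to the ER genes. Groups of 1 or 2 libraries at these depths limit what could be called.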
